A study of Mus musculus with 2 samples.

Results

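AP-1 is a dimer of basic leucine zipper (bZIP) proteins, and the small Mafs are short bZIP proteins that pair with other members of the same superfamily. Of the 55536 annotated genes in the tables, 10 were taken by symbol: Jun, Junb and Jund of the JUN family, Fos, Fosb and Fosl2 of the FOS family, Atf3, and the small Mafs Maff, Mafk and Mafg. Both libraries came from bone-marrow-derived macrophages of mouse strain C57BL/6J, which are cells matured in culture from marrow precursors. The cells had been treated with lipid A, the membrane anchor of bacterial lipopolysaccharide and a TLR4 ligand, for 90 min at 100 ng/ml. RNA of the nucleoplasmic fraction, the soluble part of the nucleus, was depleted of ribosomal RNA and sequenced as total RNA. The labels give 1 group with 2 biological replicates, and sex and age were not recorded. Since both replicates name 1 donor entry, their spread may in part be technical. Library preparation started from 1 µg of RNA in replicate 1 and from 500 ng in replicate 2. No untreated, later or cytoplasmic library was analysed here, so the values are levels at 1 time in 1 fraction and measure neither induction nor export.

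JUN proteins bind DNA as dimers with each other, with FOS proteins or with ATF proteins. FOS proteins do not form stable dimers among themselves and need a JUN partner. In macrophages the JUN and FOS genes belong to the early response to TLR4, downstream of the MAP kinases, and ATF3 is a TLR4-induced protein that holds back cytokine genes such as Il6. Small Mafs carry a DNA-binding zipper but no transactivation domain, so that their homodimers repress, while their dimers with NRF2 or related CNC proteins activate antioxidant genes.

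The genes lie on 8 chromosomes of the mm10 (GRCm38) assembly, as annotated by GENCODE M21. Junb spans chr8:84974484-84978718 on the minus strand and Jund chr8:70698949-70700616 on the plus strand. Jun spans chr4:95049034-95052222 on the minus strand. Fosl2 spans chr5:32135801-32157842 on the plus strand, Fos chr12:85473890-85477273 on the plus strand, and Fosb chr7:19302696-19310051 on the minus strand. Atf3 spans chr1:191170296-191218039 on the minus strand. Mafg spans chr11:120625117-120633600 on the minus strand, Mafk chr5:139791513-139802653 on the plus strand, and Maff chr15:79346621-79359076 on the plus strand.

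Promoter windows from RefSeq (GRCm38.p6), 250 bases before to 50 bases after an annotated start, were found for all 10 genes. There were 12 such windows, because Maff has 3 starts, out of 32841 windows in the whole table. The 4 windows printed here belong to the most abundant JUN gene, the most abundant FOS gene, the prototype immediate-early gene Fos, and the Maff start that most of the Maff signal was assigned to in the first quantification. They are chr8:84978699-84978998 (minus strand) for Junb, chr5:32136222-32136521 (plus strand) for Fosl2, chr12:85473640-85473939 (plus strand) for Fos and chr15:79347270-79347569 (plus strand) for Maff. Each is written 5′ to 3′ along the gene. Capitals mark a TATA box in Junb, an NF-kB consensus in Fosl2, an NF-kB consensus and then a TATA box in Fos, and a cAMP response element in Maff.
Junb: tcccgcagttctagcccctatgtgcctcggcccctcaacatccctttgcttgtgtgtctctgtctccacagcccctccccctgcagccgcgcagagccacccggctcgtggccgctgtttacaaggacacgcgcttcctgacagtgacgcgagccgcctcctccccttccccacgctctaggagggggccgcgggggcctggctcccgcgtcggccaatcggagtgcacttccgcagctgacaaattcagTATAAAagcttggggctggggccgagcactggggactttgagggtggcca
Fosl2: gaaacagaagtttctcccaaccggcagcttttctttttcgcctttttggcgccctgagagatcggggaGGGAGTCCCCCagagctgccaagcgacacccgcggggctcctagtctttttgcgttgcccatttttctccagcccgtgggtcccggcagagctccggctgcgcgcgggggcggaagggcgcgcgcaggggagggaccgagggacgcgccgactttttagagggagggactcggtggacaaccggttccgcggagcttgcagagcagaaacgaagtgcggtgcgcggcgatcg
Fos: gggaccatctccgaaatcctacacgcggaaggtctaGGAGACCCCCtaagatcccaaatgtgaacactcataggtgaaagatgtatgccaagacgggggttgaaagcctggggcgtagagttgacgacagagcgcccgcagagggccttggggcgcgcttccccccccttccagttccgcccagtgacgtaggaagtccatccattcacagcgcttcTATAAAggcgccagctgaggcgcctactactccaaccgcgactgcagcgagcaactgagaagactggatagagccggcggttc
Maff: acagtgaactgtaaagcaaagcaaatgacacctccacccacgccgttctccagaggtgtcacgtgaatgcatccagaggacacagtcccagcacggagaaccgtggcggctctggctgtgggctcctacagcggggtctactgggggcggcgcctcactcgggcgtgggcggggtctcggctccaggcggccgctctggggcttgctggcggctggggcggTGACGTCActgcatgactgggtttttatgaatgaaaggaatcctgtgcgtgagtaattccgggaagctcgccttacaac

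In these letters, Fos carried TATAAA 33 bases before its start, the place of a classical TATA box. Junb carried TATAAA at the RefSeq start, position 84978748 on the minus strand. The GENCODE start of Junb-201 lies downstream, at position 84978718, so the box also precedes that start. TATAAA, searched on the gene's strand alone, was present in 8.32% of all windows. The 10-base NF-kB consensus, searched on both strands, occurred in 8.46% of all windows. Among the 12 windows of the 10 genes it occurred in 4, each of a different gene. It lay 214 bases before the start of Fos, 188 before that of Fosb and 70 before the most downstream start of Maff. In Fosl2 a pair of overlapping matches lay 182 and 181 bases before the RefSeq start. That start lies downstream of the GENCODE start, inside the annotated transcript Fosl2-202, so the printed Fosl2 window is itself transcribed sequence in GENCODE.

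The cAMP response element TGACGTCA, which ATF and JUN dimers bind, was found in 1.79% of all windows and lay 29 bases before the middle start of Maff. The antioxidant response element core TGACNNNGC, the site of small Maf and CNC dimers, was found in 12.4% of all windows. Among the 10 genes it occurred in the windows of the 3 small Mafs, 112 bases before the most upstream start of Maff, 222 before that of Mafg and 13 before that of Mafk. The AP-1 site TGANTCA, present in 7.81% of all windows, was not among the letters of any of the 12 windows, and neither was the CArG box (1.63% of all windows), the site of serum response factor. These motifs were searched on both strands, and matches of TGANTCA or TGACGTCA can overlap a match of TGACNNNGC. The Jund window rests on a RefSeq start upstream of the GENCODE start. All matches are descriptions of short stretches and do not show binding. Sites more than 250 bases before a start lie outside the windows, so the absence of a motif does not extend to them.

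Levels are given as TPM, a length-corrected share of all transcripts in a library, from the first of the authors' quantifications. Replicate 1 held 22669533 estimated counts and replicate 2 held 14939143. Of all genes, 8559 protein-coding genes outside the mitochondrial genome reached 1 TPM in both libraries, with a median of 6.62 TPM in replicate 1 and 8.67 TPM in replicate 2. They summed to 176094 TPM in replicate 1 and 216340 TPM in replicate 2, and the median of their log2 TPM ratios (replicate 1 over replicate 2) was -0.38. A gene at equal TPM was therefore relatively more abundant in replicate 1, and ratios between the libraries below use TMM-scaled counts (TMM is a scaling that aligns most genes), with a median of 0.03 over the same genes. The labelled cell type showed in its markers: 9 of 9 macrophage markers reached 1 TPM in both, with Lyz2 at 916 and 1103 TPM, Adgre1 at 194 and 249, Csf1r at 168 and 260 and Cd68 at 153 and 210. Their summed TPM was 1529 in replicate 1 and 1930 in replicate 2. The marker lists of 7 other cell types summed to at most 2.83 TPM each in the first quantification. In the second quantification Cd3d, a T cell marker listed at 0 in the first, had 3.01 TPM in replicate 1 and 13.1 TPM in replicate 2, and Pecam1, an endothelial marker also found on myeloid cells, had 3.53 and 13.4, against 0.21 and 0.60 in the first. Trac, Nkg7, Ly6g, Elane and Mcpt8 were listed at 0 in both libraries and both quantifications. In bulk RNA, fewer cells of a type and less RNA per cell cannot be told apart.

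All 10 genes were measured above 1 TPM in both libraries. Their median was 12.5 TPM in replicate 1 and 12.7 TPM in replicate 2, and 6 of 10 reached 10 TPM in both libraries, beside 37.5% of expressed protein-coding genes. The 3 genes that reached 50 TPM in both libraries were Junb, Atf3 and Fosl2, beside 7.66% of expressed protein-coding genes. In each family 1 gene held most of the summed level: Junb among the JUN genes, Fosl2 among the FOS genes and Mafg among the small Mafs. Fosb was the lowest of the 10 in both libraries.

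**Figure D1:**
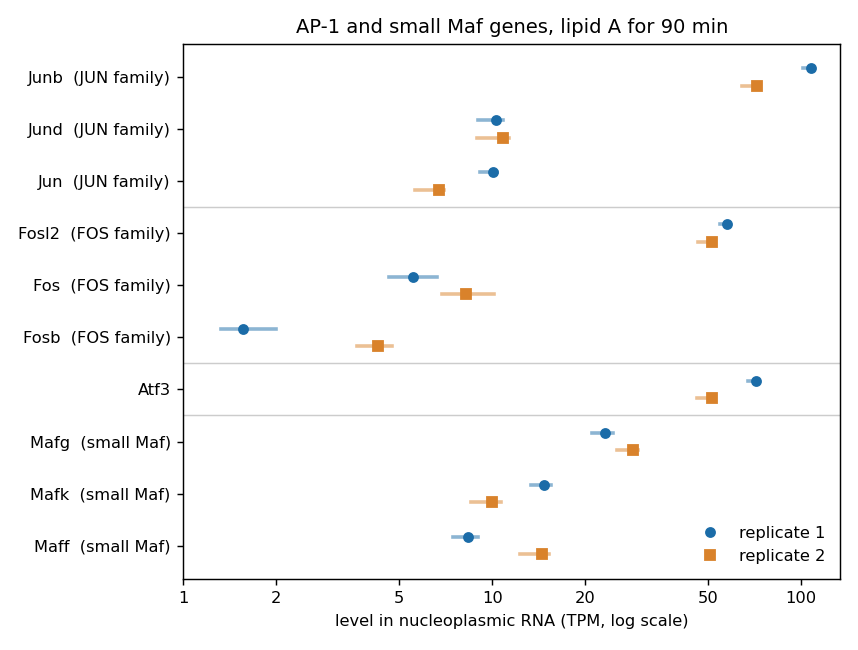
Level of each gene in TPM on a log axis, replicate 1 above replicate 2 for each gene, grouped by family. Points are the deposited TPM and bars the deposited interval bounds; Junb, Atf3 and Fosl2 lie above 50 TPM in both libraries and the other 7 genes lie below 30 TPM.

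The JUN family provides partners that every FOS protein needs. Junb, whose protein is a weaker activator than JUN at many single AP-1 sites, stood at 107.5 TPM (5933 counts) in replicate 1 and 71.9 TPM (1973 counts) in replicate 2. The authors also gave a posterior mean TPM, 104 in replicate 1 and 67.5 in replicate 2. Its interval was 101 to 107 in replicate 1 and 64.5 to 70.6 in replicate 2. The TPM of Junb lay just above this interval in both libraries. Junb was the most abundant of the 10 genes in both libraries, and the intervals did not overlap. Its mean was 89.7 ± 25.2 TPM (SD, n = 2, as for all means below).

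Jund encodes the JUN protein usually found in resting cells. It had 10.3 TPM (520 counts) in replicate 1 and 10.9 TPM (273 counts) in replicate 2, with a mean of 10.6 ± 0.382 TPM. Jun, the founding member and the target of the JNK kinases, had 10.04 TPM (1039 counts) in replicate 1 and 6.71 TPM (345 counts) in replicate 2, with a mean of 8.38 ± 2.35 TPM. Jund was above Jun in both libraries, by a narrow margin in replicate 1.

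The summed level of the JUN family was 128 TPM in replicate 1 and 89.5 TPM in replicate 2. Junb made up 84.1% of this sum in replicate 1 and 80.4% in replicate 2. Jund contributed 8.07% in replicate 1 and 12.1% in replicate 2, and Jun 7.85% and 7.50%. In the second quantification, which the authors made directly from the reads, Junb had 82.7% and 75.6% of the family.

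Among the FOS genes, Fosl2, which encodes FRA2, a FOS protein without the strong transactivation domain of FOS, had 57.6 TPM (8575 counts) in replicate 1. In replicate 2 it had 51.37 TPM (3850 counts), and the mean was 54.5 ± 4.40 TPM. Fosl2 was the FOS gene with the highest level in both libraries.

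Fos, the prototype of immediate-early genes, had 5.55 TPM (272 counts) in replicate 1 and 8.20 TPM (200 counts) in replicate 2, with a mean of 6.88 ± 1.87 TPM. Fosb, a FOS gene that is also induced early, had 1.56 TPM (168 counts) in replicate 1 and 4.27 TPM (252 counts) in replicate 2, with a mean of 2.92 ± 1.92 TPM. Both genes were higher in replicate 2 by TPM, and neither reached the median level of expressed protein-coding genes in either library. Their levels 90 min after lipid A do not show how high they stood at an earlier time.

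The FOS family summed to 64.7 TPM in replicate 1 and 63.8 TPM in replicate 2. Fosl2, counted over all its transcripts, made up 89.0% in replicate 1 and 80.5% in replicate 2. Its spliced coding transcript Fosl2-201 alone had 22.6 TPM in replicate 1 and 20.8 TPM in replicate 2, which was above the whole of Fos in both. Fos had 8.58% of the sum in replicate 1 and 12.8% in replicate 2, and Fosb had 2.41% and 6.69%. Fosl1, which encodes FRA1, the remaining FOS protein, was at 0.04 TPM in replicate 1 and was listed at 0 in replicate 2. It is named here after its values were seen, as the 1 gene under 1 TPM in a list of 15 other FOS, JUN, ATF and BATF genes.

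Atf3 had 71.3 TPM (4354 counts) in replicate 1 and 51.25 TPM (1561 counts) in replicate 2, with a mean of 61.3 ± 14.2 TPM. It ranked second of the 10 genes in replicate 1, above Fosl2 by more than the width of the intervals, and level with Fosl2 in replicate 2.

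Mafg, one of the small Mafs, had 23.2 TPM (2452 counts) in replicate 1 and 28.5 TPM (1848 counts) in replicate 2, with a mean of 25.8 ± 3.78 TPM. Mafk had 14.8 TPM (1277 counts) in replicate 1 and 10 TPM (454 counts) in replicate 2, with a mean of 12.4 ± 3.36 TPM. Maff, the small Maf gene known for induction by cytokines and stress, had 8.35 TPM (486 counts) in replicate 1 and 14.5 TPM (409 counts) in replicate 2, with a mean of 11.4 ± 4.33 TPM. Mafg was the highest small Maf gene in both libraries, while Mafk and Maff changed places between them.

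The small Mafs together stood at 46.3 TPM in replicate 1 and 53.0 TPM in replicate 2. Mafg made up 50.1% in replicate 1 and 53.8% in replicate 2. Mafk contributed 31.9% in replicate 1 and 18.9% in replicate 2, and Maff 18.1% and 27.3%. The second quantification gave Mafg a larger part, 57.5% in replicate 1 and 62.6% in replicate 2.

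**Figure D2:**
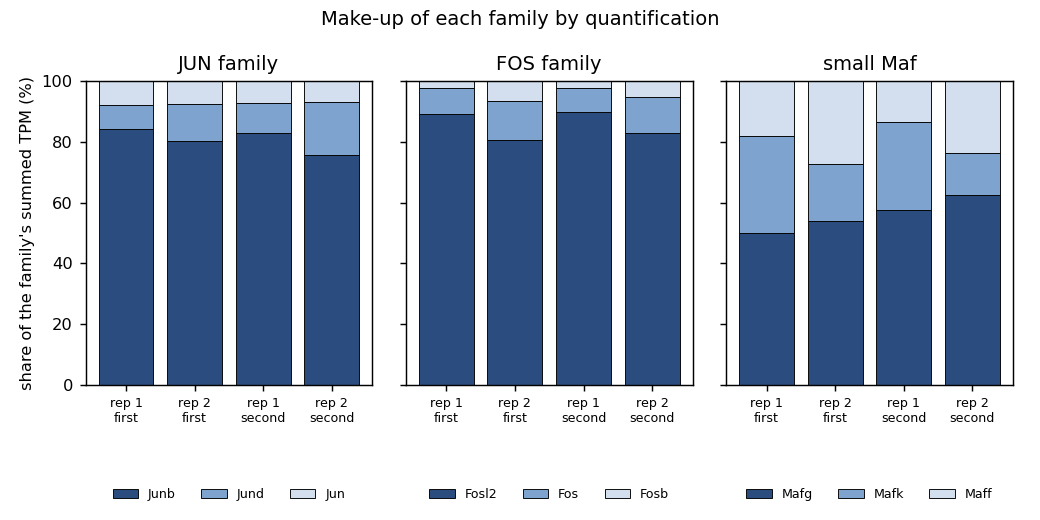
Share of each gene in its family's summed TPM, in percent, for both replicates in the first and in the second quantification. Junb, Fosl2 and Mafg hold the largest part in each of the 4 bars of their family; the share of Mafg runs from 50.1% to 62.6%.

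Between families, the summed TPM of the JUN genes was 1.98 times that of the FOS genes in replicate 1 and 1.40 times in replicate 2. It was 2.76 times that of the small Mafs in replicate 1 and 1.69 times in replicate 2, but 1.60 and 1.10 times in the second quantification. The ratio of FOS to small Maf genes was 1.40 in replicate 1 and 1.21 in replicate 2 in the first quantification. In the second quantification this ratio was 0.883 in replicate 1 and 0.845 in replicate 2, so which of these sums was larger depended on the quantification. The sums are of RNA in the nucleoplasm, with transcripts annotated as retained introns included, and do not give amounts of protein or of dimers.

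By mean level the order was Junb, Atf3, Fosl2, Mafg, Mafk, Maff, Jund, Jun, Fos and Fosb. Of the 9 pairs of neighbours in this order, 5 kept their order in both libraries without overlap of their values: Junb above Atf3, Fosl2 above Mafg, Mafg above Mafk, Jund above Jun, and Fos above Fosb. The other 4 pairs overlapped and changed places between the libraries, namely Atf3 and Fosl2, Mafk and Maff, Maff and Jund, and Jun and Fos. An exact permutation test of 2 against 2 values cannot reach a p of 0.05, so the order is a description. The same 5 pairs kept their order, and the same 4 changed places, in the second quantification.

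Set among the 8559 expressed protein-coding genes, Junb stood at percentile 97.0 in replicate 1 and 93.5 in replicate 2. Atf3 stood at 94.9 in replicate 1 and 90.0 in replicate 2, Fosl2 at 93.2 and 90.1, and Mafg at 81.6 and 81.2. Mafk was at percentile 71.7 in replicate 1 and 53.9 in replicate 2, while Maff was at 56.4 and 65.1. Jund and Jun lay close together in replicate 1, at 62.3 and 61.7, and further apart in replicate 2, at 56.5 and 42.3. Fos was below the middle of the distribution in both libraries, at 44.5 in replicate 1 and 48.4 in replicate 2. Fosb was the lowest, at 8.51 in replicate 1 and 28.6 in replicate 2.

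**Figure D3:**
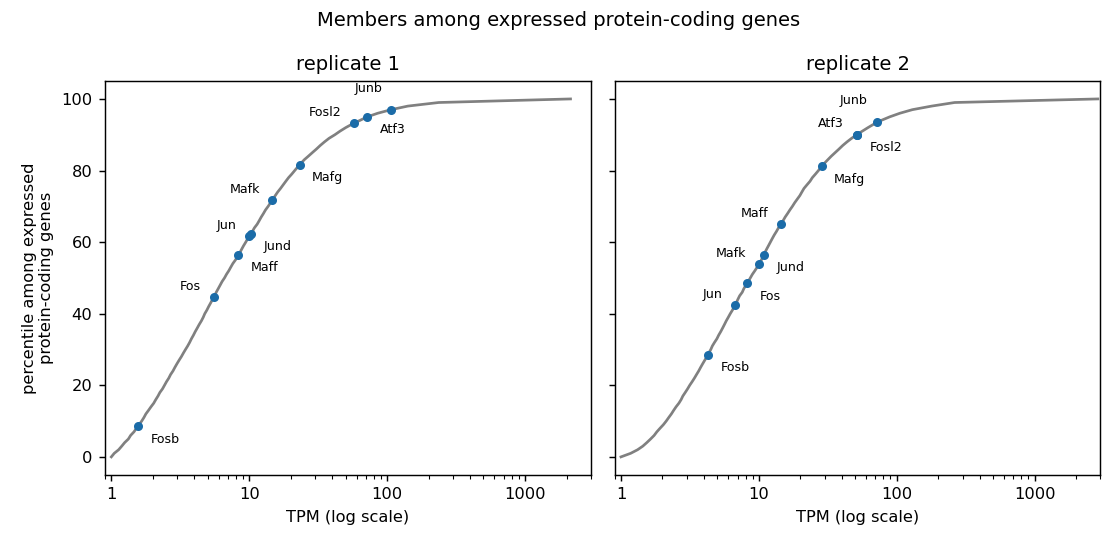
Percentile of each gene's TPM among 8559 expressed protein-coding genes (vertical axis) against its TPM on a log axis, replicate 1 left and replicate 2 right. The grey curve is the distribution of all these genes; Junb sits at 97.0 in replicate 1 and 93.5 in replicate 2, and Fosb at 8.51 and 28.6.

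Differences between the libraries were set beside those of other genes. The deposited intervals of TPM did not overlap for 9 of 10 genes, beside 45.3% of expressed protein-coding genes, and Jund was the exception. Both counts are on unscaled TPM and so include its median log2 shift of -0.38 between the libraries. Such intervals are narrower for genes with more counts. The level of these intervals is not given in the file headers, and they belong to the deposited posterior mean TPM, so that 16 of the 20 TPM values lay inside them. On TMM-scaled counts, 6 of 10 genes were more than 1.5-fold apart, beside 10.9% of expressed protein-coding genes. Of these, 5 were higher in replicate 1 (beside 8.66%) and 1 was higher in replicate 2 (beside 2.21%). Each value compares 1 library with 1 other and has no replicate of its own.

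Junb had a log2 ratio, replicate 1 over replicate 2, of 1.02, a 2.03-fold difference, and Jun had the same log2 ratio of 1.02. Over 2-fold apart were 3 of the 10 genes (beside 2.43%), namely Junb and Jun, higher in replicate 1 (beside 2.15%), and Fosb, higher in replicate 2 (beside 0.28%). Junb and Jun fell just under 2-fold with scaling over protein-coding genes alone (1.00 each, 0.9984 and 0.9979 in full). On median-centred log2 TPM they were under it as well, with 0.96 and 0.89 for Junb and 0.95 and 0.84 for Jun. Mafk had a log2 ratio of 0.92 and Atf3 one of 0.91. These 4 genes were higher in replicate 1 under each of the 7 other scalings tried, and each stayed over 1.5-fold.

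Fosl2 sat at the 1.5-fold line with a log2 ratio of 0.59, and was under it with DESeq2 size factors (0.58), with protein-coding scaling (0.57) and on median-centred log2 TPM (0.54 and 0.48). Jund had a log2 ratio of 0.36. Fosb went the other way, with a log2 ratio of -1.14, which is 2.21-fold higher in replicate 2. Its log2 ratio was -0.94 in the second quantification, and -1.02 and -0.72 on median-centred log2 TPM. Fosb was thus not over 2-fold apart under each setting. Maff was slightly higher in replicate 2, with a log2 ratio of -0.32.

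For Fos the log2 ratio was -0.12, beside a median of 0.03 for all expressed protein-coding genes, and in the second quantification it was 0.02 beside a median of 0.16, so that Fos lay slightly below the median in both. For Mafg the log2 ratio was -0.16, against 0.08 and 0.03 on median-centred log2 TPM, so that its sign depended on the scaling. The median log2 ratio of the 10 genes was 0.47, beside 0.03 for all expressed protein-coding genes. The starting amount of RNA differed between the same libraries, and its part in these differences cannot be told apart from that of the cultures.

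**Figure D4:**
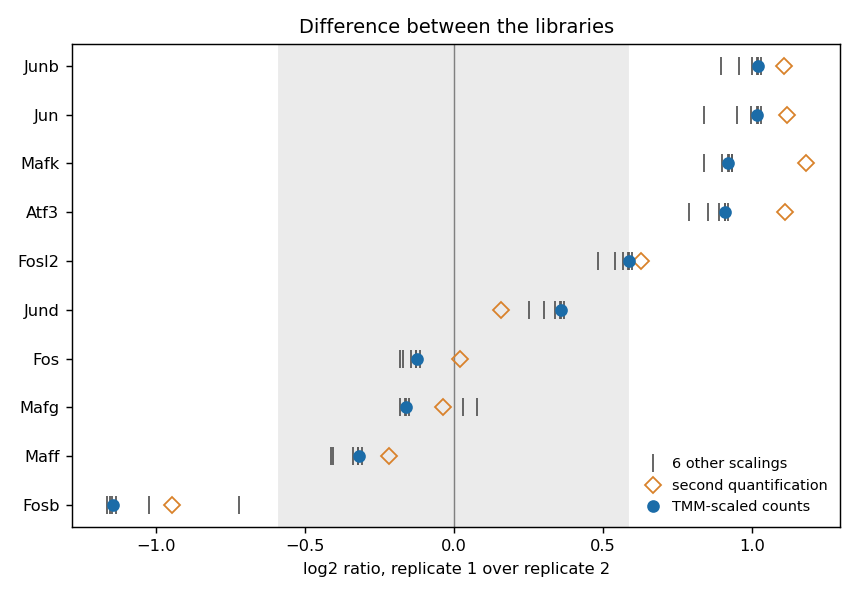
Log2 ratio of replicate 1 over replicate 2 for each gene, with TMM-scaled counts (filled circles), the second quantification (open diamonds) and 6 other scalings (ticks). The shaded band marks less than 1.5-fold; Junb, Jun, Mafk and Atf3 lie right of it and Fosb left of it under each setting drawn, while Fosl2 sits at its edge.

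GENCODE lists 33 transcripts for the 10 genes, and 27 of them took 10% or more of their gene's TPM in at least 1 library and quantification. Jun, Jund and the main transcript of Junb are single-exon transcripts, so their RNA needs no splicing. Jun and Jund have 1 annotated transcript each, and Junb-201 took 99.7% of Junb TPM in replicate 1 and 99.4% in replicate 2. In the other 7 genes the assignment of reads to transcripts was shared among several.

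In Fosl2, transcripts annotated as retained introns took more of the TPM than the spliced coding transcript. Whether the reads assigned to them came from RNA not yet spliced was not tested. The transcript Fosl2-202, annotated as a retained intron, is 1 exon of 3472 bases, and 2839 of them lie in introns of the coding transcript Fosl2-201. It took 28.9 TPM in replicate 1 and 25.8 TPM in replicate 2, which was 50.2% and 50.3% of the gene. Fosl2-201, with 4 exons and 326 codons, took 22.6 TPM in replicate 1 and 20.8 TPM in replicate 2, which was 39.3% and 40.5%. The transcript Fosl2-203 is also annotated as a retained intron and had 10.5% in replicate 1 and 9.17% in replicate 2, against 20.8% and 20.1% in the second quantification. In the first quantification the libraries differed by less than 2 percentage points for each of the 3 transcripts.

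Together the retained-intron transcripts held 60.7% of Fosl2 TPM in replicate 1 and 59.5% in replicate 2. The second quantification gave 67.7% in replicate 1 and 67.1% in replicate 2. Over 5581 expressed protein-coding genes with such a transcript, the median was 35.2% in replicate 1 and 34.3% in replicate 2, and Fosl2 stood at percentile 85.4 and 83.1. A share of 50% or more in both libraries was passed by 1 of the 2 genes among the 10 that have such a transcript, beside 21.5% of all. The other one, Fosb, had 3.21% in replicate 1 and 1.40% in replicate 2. By estimated counts, which favour long transcripts, Fosl2-202 held 38.2% of the gene in replicate 1 and 37.8% in replicate 2, and Fosl2-201 58.1% and 59.1%.

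In Atf3, the transcript Atf3-201, which starts at position 191183340 and has 181 codons, took 86.3% in replicate 1 and 89.9% in replicate 2. Atf3-203 has the same coding length and starts far upstream, at position 191218039. It took 13.7% in replicate 1 and 10.1% in replicate 2, but was listed at 0 in replicate 1 and had 0.704% in replicate 2 in the second quantification. The noncoding Atf3-202 did the reverse, being listed at 0 in the first quantification and taking 15.3% in replicate 1 and 12.5% in replicate 2 in the second. The quantifications thus differed on the upstream start.

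In Fos, the coding transcript Fos-201 of 380 codons took 65.2% in replicate 1 and 63.7% in replicate 2, and 57.7% and 51.5% in the second quantification. By estimated counts of the first it held 87.6% and 85.5%. The shorter processed transcript Fos-203 had 20.2% of Fos TPM in replicate 1 and 32.6% in replicate 2, against 36.7% and 36.5% in the second quantification. Fos-202 had 14.6% in replicate 1 and 3.66% in replicate 2, against 5.58% and 12.1%.

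Fosb divided differently in the libraries, at low counts. Fosb-201, the full coding form of 338 codons, took 57.7% in replicate 1 and 21.5% in replicate 2, while in the second quantification it had 64.6% and 55.1%. Fosb-207, of 201 codons, took 24.4% in replicate 1 and 40.7% in replicate 2, against 12.1% and 43.3% in the second quantification. Fosb-205, of 299 codons, was listed at 0 in replicate 1 and had 36.4% in replicate 2, yet it had 0.203% in replicate 2 in the second quantification. Fosb-206 has 237 codons, the coding length of the truncated splice form called delta FosB, which lacks the C-terminal activation region. It had 14.7% in replicate 1 and was listed at 0 in replicate 2, and in the second quantification it had 20.3% in replicate 1 and was listed at 0 in replicate 2.

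For Maff, Maff-201, of 156 codons and from the middle start, took 91.2% in replicate 1 and 65.6% in replicate 2. The second quantification put it at 49.8% in replicate 1 and 19.3% in replicate 2. The most upstream transcript Maff-203 was listed at 0 in replicate 1 and had 28.0% in replicate 2 in the first quantification, and had 9.77% and 3.07% in the second. Maff-202 had 3.96% in replicate 1 and was listed at 0 in replicate 2, against 18.2% and 45.7% in the second quantification. Maff-204, of 101 codons, had 4.80% in replicate 1 and 6.43% in replicate 2, against 22.2% and 31.9%. The quantifications therefore did not give the same leading start of Maff in replicate 2.

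Mafk-201 and Mafk-202 encode the same 156 codons from different starts. Mafk-201 took 55.6% of Mafk TPM in replicate 1 and 57.4% in replicate 2, and Mafk-202 took 34.5% and 38.2%. In the second quantification Mafk-201 had 27.9% in replicate 1 and 37.1% in replicate 2, and Mafk-202 was above it with 29.5% and 40.0%, so the leading coding transcript and its start depended on the quantification. The noncoding Mafk-203 had 9.91% in replicate 1 and 4.40% in replicate 2, and 42.6% and 23.0% in the second quantification. Mafg-201, of 162 codons, took 58.6% of Mafg TPM in replicate 1 and 76.3% in replicate 2, but 26.1% and 37.3% in the second quantification. By estimated counts, which favour long transcripts, it held 90.7% and 95.7% in the first quantification and 77.7% and 85.4% in the second. The shorter Mafg-204 had 28.0% in replicate 1 and 15.3% in replicate 2, against 23.0% and 15.4%. The noncoding Mafg-205 had 10.4% in replicate 1 and 6.07% in replicate 2, against 32.9% and 27.7% in the second quantification, where it was the highest Mafg transcript in replicate 1. Mafg-202 had 3.02% in replicate 1 and 1.37% in replicate 2, and 13.0% and 13.6% in the second quantification.

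**Figure D5:**
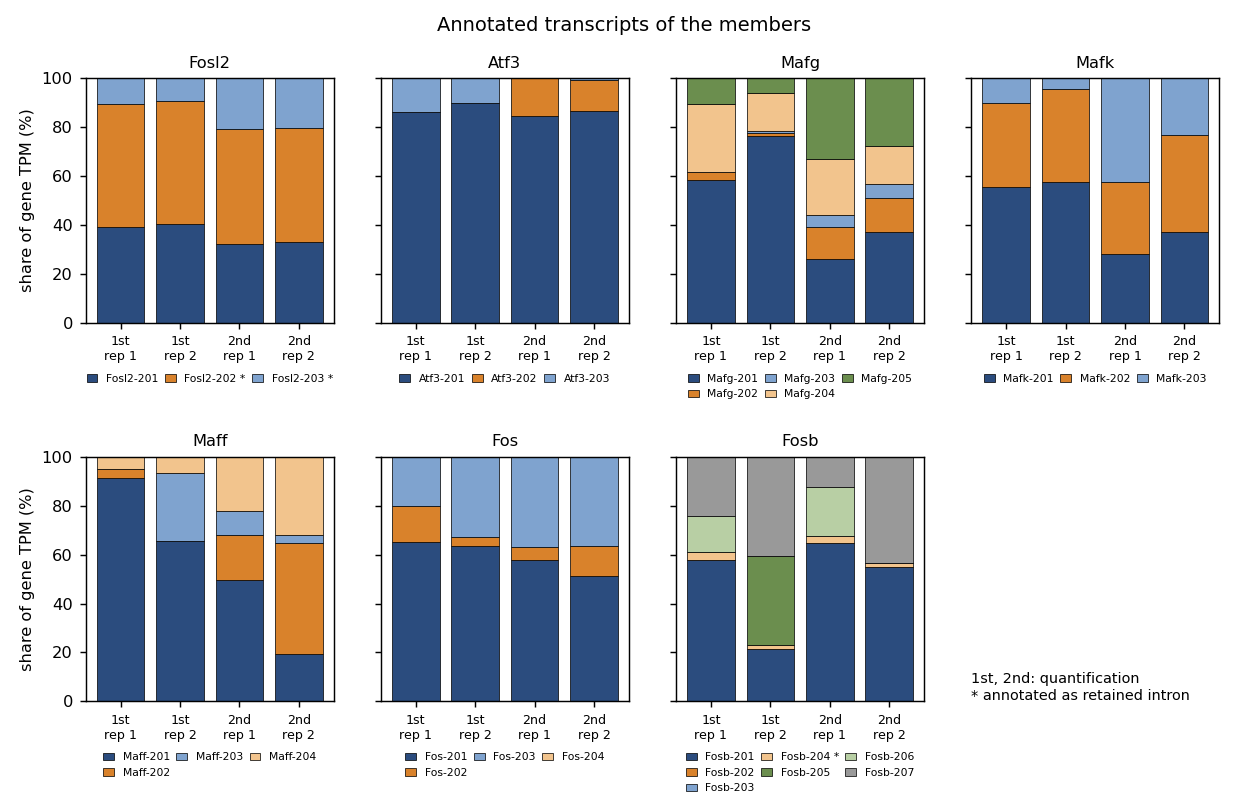
Share of each annotated transcript in its gene's TPM, in percent, for both replicates in the first (1st) and second (2nd) quantification, in the 7 genes with several transcripts above 10%. Fosl2-202 lies between 47.0% and 50.3% in the 4 Fosl2 bars, while Mafg-201 runs from 26.1% to 76.3% and Mafk-203 from 4.40% to 42.6%; in Maff and Fosb the replicates differ as well.

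AU-rich elements in 3′ untranslated regions, built from the pentamer ATTTA, can mark RNA for rapid decay, and the 10 genes differed in how many pentamers they carried. Of the 10 genes, 7 had 3 or more ATTTA pentamers in the 3′ UTR of their most abundant coding transcript, beside 36.1% of 8506 expressed protein-coding genes. Counts were 8 in Fosl2, 5 in Mafk, 4 each in Fos, Jun, Maff and Mafg, 3 in Atf3, 2 in Junb, and 1 each in Jund and Fosb. UTR length differs widely, from 485 bases in Junb to 4653 bases in Fosl2. Per kb, Fos was highest with 4.91 pentamers and Junb next with 4.12, beside a median of 1.35 over all genes. Jund had 1.88 per kb, while Mafg with 0.960 and Fosb with 0.434 were below the median.

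The nonamer TTATTTATT, a stronger decay motif, occurred in 3 of the 10 genes, beside 7.54% of expressed protein-coding genes. It was found once in Fos, once in Fosl2 and at 2 places in Maff. Each window of 30 bases below holds 1 nonamer, so 1 of the 2 in Maff is not shown. The windows run along the transcript, from the GENCODE M21 annotation of the mm10 assembly. They begin at 3′ UTR base 644 of Fos-201, base 3677 of Fosl2-201 and base 923 of Maff-201. Capitals mark ATTTA, and in Fos the pentamers overlap.
Fos: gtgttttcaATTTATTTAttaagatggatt
Fosl2: ttgacATTTAttttattATTTAttttaaat
Maff: ttccacactcttATTTAttgcacgaatcta
These letters come from the annotation. Decay of the RNAs was not measured in these libraries.

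Several of the 10 genes overlap another gene, and since the strandedness of the counting is not given in the sources used here, reads from overlapping genes on opposite strands cannot be told apart. Junb shares 351 bases with the opposite-strand gene Prdx2, which was at 9.17 TPM in replicate 1 and 8.93 TPM in replicate 2. The shared bases lie outside Junb-201, which took 99.7% of Junb TPM in replicate 1 and 99.4% in replicate 2. Jun shares 689 bases with the antisense gene Junos, at 1.49 TPM in replicate 1 and 0.750 TPM in replicate 2. The antisense gene Gm11175 lies within Jund over 919 bases and had 1.05 TPM in replicate 1 and was listed at 0 in replicate 2. Mafg shares 124 bases with Sirt7 on the same strand, at 19.4 TPM in replicate 1 and 25.4 TPM in replicate 2. Apart from Sirt7, which stood near Mafg, each of these was below the gene it overlaps in both libraries.

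Partners and regulators were read from 6 lists. Of the 15 other FOS, JUN, ATF and BATF genes, 14 reached 1 TPM in both libraries and 7 reached 10 TPM. Jdp2, which encodes a repressive partner of JUN, had 51.2 TPM in replicate 1 and 108 TPM in replicate 2, Creb5 had 51.3 and 58.4, and Creb1 had 29.1 and 50.2. On TMM-scaled counts 2 of the 14 were over 1.5-fold higher in replicate 1 (beside 8.66% of expressed protein-coding genes). Over 1.5-fold higher in replicate 2 were 0 of them (beside 2.21%).

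The CNC, BACH and large Maf list holds the partners and relatives of the small Mafs, and 5 of its 10 genes reached 1 TPM and 4 reached 10 TPM in both libraries. Nfe2l2, which encodes NRF2, had 57.6 TPM in replicate 1 and 87.6 TPM in replicate 2, above each small Maf gene in both libraries. Bach1, which encodes the repressor that competes with NRF2 for small Mafs, had 59.3 TPM in replicate 1 and 50.7 TPM in replicate 2. Maf, a large Maf, had 26.9 TPM in replicate 1 and 45.3 TPM in replicate 2. None of the 5 was over 1.5-fold apart on TMM-scaled counts, beside 10.9% of expressed protein-coding genes. Among the small Mafs, Mafk was over 1.5-fold apart, while Mafg and Maff were not.

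Other bZIP genes reached 1 TPM in both libraries in 10 of 14 cases and 10 TPM in 4. Xbp1 led them with 24.7 TPM in replicate 1 and 21.6 TPM in replicate 2, before Crebzf with 20.3 and 20.1 and Cebpb with 12.9 and 13.5. Each of these was below Junb, Atf3 and Fosl2 in both libraries. In the first quantification none of the 39 genes in these 3 bZIP lists reached 100 TPM in both libraries. In the second quantification Jdp2 did, with 101 TPM in replicate 1 and 249 TPM in replicate 2. It stood there above Junb, which had 65.0 TPM in replicate 1 and 43.0 TPM in replicate 2.

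MAP kinase cascade genes, whose products act on JUN and FOS, reached 1 TPM in both libraries in 18 of 22 cases and 10 TPM in 14. Mapkapk2 had 92.8 TPM in replicate 1 and 104 TPM in replicate 2, Map3k8, which encodes TPL2, had 70.3 and 63.3, and Mapkapk3 had 46.2 and 67.3. Of the 11 listed SRF, ternary complex factor and MEF2 genes, 9 were measured and all 9 reached 1 TPM and 5 reached 10 TPM in both libraries. Mef2a had 51.6 TPM in replicate 1 and 91.0 TPM in replicate 2, Elk4 had 19.7 and 24.6, and Mrtfa had 18.5 and 20.1.

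Genes for turnover and repression of AP-1 were measured for 11 of 12 names, and all 11 reached 1 TPM and 9 reached 10 TPM in both libraries. Zfp36, which encodes tristetraprolin, a protein that binds AU-rich elements and promotes decay, had 142 TPM in replicate 1 and 107 TPM in replicate 2. Cop1, which encodes a ubiquitin ligase for JUN, had 66.1 TPM in replicate 1 and 97.0 TPM in replicate 2. On TMM-scaled counts Zfp36 was the 1 gene of this list over 1.5-fold higher in replicate 1 (beside 8.66%), with a log2 ratio of 0.83. Over 1.5-fold higher in replicate 2 were 0 genes of this list (beside 2.21%). Among the 10 genes the log2 ratio ran from 1.02 for Junb to -1.14 for Fosb, and a link with Zfp36 was not tested.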

How the data were processed

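Total RNA of the nucleoplasmic fraction was sequenced in 2 libraries of 1 group. Per the file headers and accompanying notes, the authors deposited a gene and a transcript table from 1 quantification (transcriptome alignment to mm10, GENCODE M21) and a transcript table from a second, run on the reads themselves (10 files per library). Which aligner and quantifiers they used is not given in the sources used here. Estimated counts were deposited without normalization, and the deposited TPM values are scaled to 1 fixed total over all 81881 features of the gene table. The deposited FPKM values served as an alternative. Interval bounds of TPM (unit signal) are the authors'. The deposited percent per isoform was not used, and shares were recomputed from TPM.

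Counts were rounded to whole numbers, filtered with filterByExpr (13515 genes kept) and TMM-scaled with a prior count of 2 in edgeR 4.0.16 (R 4.3.3), with DESeq2 1.42.0 as an alternative. This step was tested on simulated data. Other steps used Python 3.11.15, numpy 2.4.6, pandas 2.3.3 and matplotlib 3.10.9. With 1 group no test between conditions was made. The 10 genes and all lists were chosen with earlier results of these data known. Named were the 10 genes, their transcripts at 10% or more, overlapping genes at 1 TPM or more, and the 3 highest genes of each list plus any at 100 TPM in both libraries. No protein sequences were used. The precision of a level is limited by its counts, given beside it, and by n = 2.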

Additional observations from a re-analysis of the deposited data

How the results depend on the processing

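The median TPM of the 10 genes was 11.9 over the means of both libraries. It was 10.1 in the second quantification, 16.0 in FPKM, 60.5 after rescaling to protein-coding genes and 17.0 as the back-transformed mean of log2 values. With 1 replicate left out it lay between 12.5 and 12.7. Junb's share of its family was 79.2% in the second quantification, and Mafg's was 60.1%. These share alternatives were chosen after seeing the data. Of the 10 genes, 4 reached 10 TPM in both libraries in the second quantification, 7 reached 10 FPKM, 9 did after rescaling and 9 reached 5 TPM. Rescaling raised the values, for Junb from 107.5 to 605 in replicate 1, so the same cut was more lenient there. The share of all expressed genes was not computed at these settings, and the 37.5% at 10 TPM is not their background. Over 1.5-fold apart were 5 or 6 genes under the 7 alternatives, beside 9.88% to 14.85% of expressed protein-coding genes. Over 2-fold apart were 3 genes on TMM-scaled counts (beside 2.43%) and 4 in the second quantification (beside 3.41%). With protein-coding scaling 1 gene was over 2-fold apart (beside 2.24%), and on centred log2 TPM 1 or 0 were (beside 2.93% and 1.44%). The second quantification moved the median of all genes to 0.16. No paired analysis was possible because the labels give 1 group. Depth limits Fosb and Fos most, at 168 to 272 counts.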

Other observations

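A list of 16 genes known from textbooks as targets of AP-1 or of small Maf and CNC dimers was read in the same libraries. Of these, 13 reached 1 TPM in both libraries and 6 reached 10 TPM. Spp1, which encodes osteopontin, had 504 TPM in replicate 1 and 576 TPM in replicate 2. Plaur, the urokinase receptor gene, had 76.9 TPM in replicate 1 and 99.3 TPM in replicate 2. Txnrd1, which encodes thioredoxin reductase, an NRF2 target, had 78.6 TPM in replicate 1 and 82.0 TPM in replicate 2. On TMM-scaled counts 2 of the 13 were over 1.5-fold higher in replicate 1 (beside 8.66%) and 0 in replicate 2 (beside 2.21%). With 1 group, whether these genes follow the 10 transcription factor genes was not tested.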
